A study of Mus musculus with 8 samples.

Results

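Fatty acid desaturases and elongases are the enzymes that turn the fatty acids a liver makes or takes up into unsaturated and longer ones. The 10 genes described here are the desaturase genes Fads1, Fads2, Fads3, Fads6, Scd1 and Scd2 and the elongase genes Elovl1, Elovl2, Elovl5 and Elovl6. They were picked by symbol from a table of 20894 genes, and all 10 were found in it. They were listed with earlier results of the comparison between POLR2G and GFP livers known, so their values in that comparison describe these libraries and support no claim about the gene family.

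The data are poly-A RNA sequencing of mouse liver. The animals were wild-type mice that received the adeno-associated vector AAV8. Its TBG promoter, which works chiefly in hepatocytes, carried POLR2G (an RNA polymerase II subunit) in one group and green fluorescent protein (GFP) in the controls. Both groups were killed after fasting through the day, and no strain, sex, age or vector dose is given in the sources used here. There were 4 GFP control libraries (replicates 1 to 4) and 4 POLR2G libraries (replicates 1, 3 and 4 and 1 library whose column carries no number listed in the labels, called unnumbered). No library is tied to an animal in the labels, so the spread behind each p-value is that between libraries and may be technical. Library totals ran from 14159056 to 22165491 counts, and replicate libraries correlated at a median r of 0.950 to 0.963 with the others of their group on the log2 scale. Counts of Polr2g were 213 to 258 under GFP and 38649 to 54553 under POLR2G, which fits all 8 labels. The 7 hepatocyte markers summed to 115960 to 137210 CPM (counts scaled to library size with TMM factors) in GFP control and 108990 to 122140 CPM in POLR2G libraries. The 5 adipocyte markers summed to 6.39 to 8.30 CPM and 4.39 to 7.01 CPM, with Lep at 0 in every library.

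Stearoyl-CoA desaturases, encoded by the Scd genes, place the first double bond in saturated acids and so make monounsaturated ones. The Fads1 and Fads2 products act in turn with the Elovl5 and Elovl2 products to turn dietary linoleic and alpha-linolenic acid into arachidonic acid and docosahexaenoic acid. Elovl6 lengthens palmitate, and Elovl1 makes very long saturated chains used in sphingolipids. In liver several of these genes are known targets of the sterol-sensing factor SREBP-1c, of the liver X receptors or of PPARA, and insulin and feeding raise several of them.

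Of the 10 genes, 5 lie on chromosome 19. Fads3 (ENSMUSG00000024664; GRCm38 chromosome 19, 10041569 to 10060110, plus strand), Fads2 (ENSMUSG00000024665; 10062765 to 10101746, minus strand) and Fads1 (ENSMUSG00000010663; 10182888 to 10196877, plus strand) lie within 155 kb. The gap between Fads3 and Fads2 is 2.65 kb, and Fads2 and Fads1 are 81.1 kb apart and point away from each other. Scd2 (ENSMUSG00000025203; chromosome 19, 44293674 to 44306864, plus strand) and Scd1 (ENSMUSG00000037071; 44394455 to 44407879, minus strand) form a second pair 87.6 kb apart. The other members are alone on chromosomes 3 (Elovl6, ENSMUSG00000041220; 129532355 to 129638495), 4 (Elovl1, ENSMUSG00000006390; 118428093 to 118432953), 9 (Elovl5, ENSMUSG00000032349; 77917364 to 77984519), 11 (Fads6, ENSMUSG00000044788; 115279622 to 115297663) and 13 (Elovl2, ENSMUSG00000021364; 41182381 to 41220405).

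Promoter sequence was looked at because Fads1, Fads2 and Fads3, which lie side by side on chromosome 19, all had lower means in the POLR2G libraries. RefSeq promoter windows of 300 bases (250 before to 50 after a start, GRCm38.p6) were matched for 7 of the 10 members, in 9 windows. Fads1, Scd1 and Scd2 were not matched. Without a Fads1 window, what the promoters of the cluster share was not tested. Fads3 and Elovl6 are shown, the first as a gene of the chromosome 19 cluster whose window holds both CCAAT and GC boxes and the second as an elongase gene whose window holds none of the motifs searched. Only bases upstream of the GENCODE gene start are printed, 5′ to 3′ on the plus strand. They are chr19:10041298-10041547 for Fads3, where the RefSeq gene span begins further upstream, and chr3:129532136-129532354 for Elovl6. Capitals mark CCAAT and GGGCGG boxes on either strand.
Fads3: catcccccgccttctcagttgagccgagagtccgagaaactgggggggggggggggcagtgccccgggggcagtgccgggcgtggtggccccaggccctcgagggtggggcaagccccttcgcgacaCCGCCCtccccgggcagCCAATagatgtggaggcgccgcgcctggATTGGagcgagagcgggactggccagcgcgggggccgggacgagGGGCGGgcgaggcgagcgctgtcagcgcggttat
Elovl6: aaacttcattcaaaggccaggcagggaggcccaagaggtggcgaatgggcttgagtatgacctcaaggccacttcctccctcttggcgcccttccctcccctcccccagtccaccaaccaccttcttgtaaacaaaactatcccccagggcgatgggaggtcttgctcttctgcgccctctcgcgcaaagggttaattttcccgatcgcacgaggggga
The Fads3 stretch holds 2 CCAAT boxes, the element that NF-Y binds, and 2 GC boxes (GGGCGG), the element that Sp1 binds. CCAAT was found in 3 of the 9 member windows (Elovl1, Elovl5 and Fads3) and in 37.4% of all 32851 windows on either strand. GGGCGG was found in 6 of the 9 windows (both of Elovl1, 1 of Elovl2, and those of Fads2, Fads3 and Fads6) and in 35.7% of all. The E-box CACGTG stood in the Elovl5 window alone, against 7.15% of all windows. The sterol response element (0.234% of all windows), the DR4 element of the liver X receptors (0.0152%) and the DR1 element of the PPARs (0.0396%) were in none of the 9. All motifs were searched on both strands, and in an Elovl1 window a CCAAT box and a GC box shared bases. A motif that is missing says only that its letters are not in the window.

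The counts of the members spanned a wide range in these libraries, from Scd1 with at least 77595 counts in a library to Elovl5 with at most 4. Levels are compared between genes as CPM per kilobase of the longest annotated coding transcript, as means over the 4 GFP control libraries. Scd1 was highest at 1968 ± 919 (SD, n = 4), followed by Fads2 at 431 ± 31.6, Fads1 at 207 ± 15.3, Fads6 at 50.5 ± 2.71 and Elovl6 at 39.7 ± 3.41. The ranges of these 5 over the libraries did not overlap. Elovl1 (9.68 ± 1.85), Elovl2 (7.92 ± 2.31) and Fads3 (6.06 ± 1.02) followed with overlapping ranges, so their order is not resolved. Scd2, the stearoyl-CoA desaturase of brain and many other tissues, measured 1.07 ± 0.437. With the median length of the coding transcripts instead, Elovl6 (104) stood above Fads6 (50.5) and Fads3 (19.4) above Elovl1 (13.5). Annotated coding transcripts numbered 1 for Scd2 and Fads6, 2 for Fads2, Scd1 and Elovl2, 3 for Fads3 and Elovl5, 4 for Fads1 and Elovl1 and 5 for Elovl6. Whether the gene values cover all of these transcripts is not given in the sources used here, and this limits any level.

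**Figure D1:**
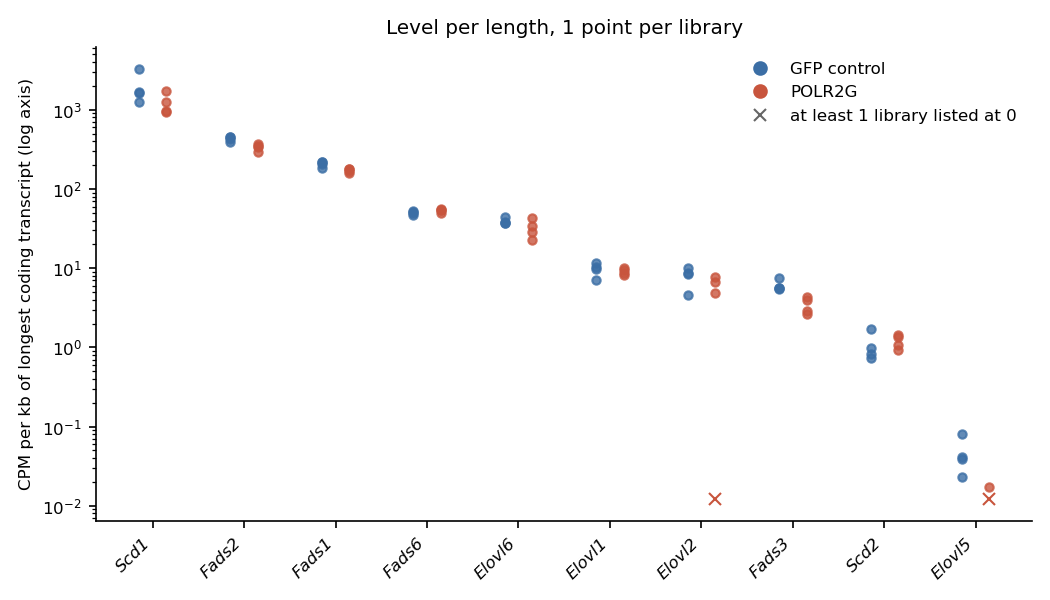
Level of the 10 genes in CPM per kilobase of the longest coding transcript (log axis), 1 point for each of the 4 GFP control (blue) and 4 POLR2G (orange) libraries; a cross marks a group with at least 1 library listed at 0. Scd1 lies highest and Elovl5 lowest in both groups, and Elovl1, Elovl2 and Fads3 overlap in the GFP control libraries.

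Among the labelled factors the groups differ only in what the vector carried, POLR2G or GFP. This sets the question of how these transcripts stand in fasted liver with POLR2G raised, against GFP. An effect of POLR2G and an effect of GFP cannot be told apart. None of the 9 members that could be tested passed the test by edgeR, where 0.0385% of all genes did, and 7 of the 9 had a negative log2 fold change, as had 50.7% of all genes. The 3 genes of the chromosome 19 cluster, Fads1, Fads2 and Fads3, were lower in all 4 POLR2G libraries than in any GFP control library (2.68% of all genes), with means that differed by -16.9%, -21.9% and -42.9%. Scd1, Elovl6 and Elovl2 had lower means too, with overlapping libraries and, for Elovl2, 1 POLR2G library at 0, and those of Scd2, Elovl1 and Fads6 overlapped with smaller differences. Elovl5 had too few counts to be tested.

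**Figure D2:**
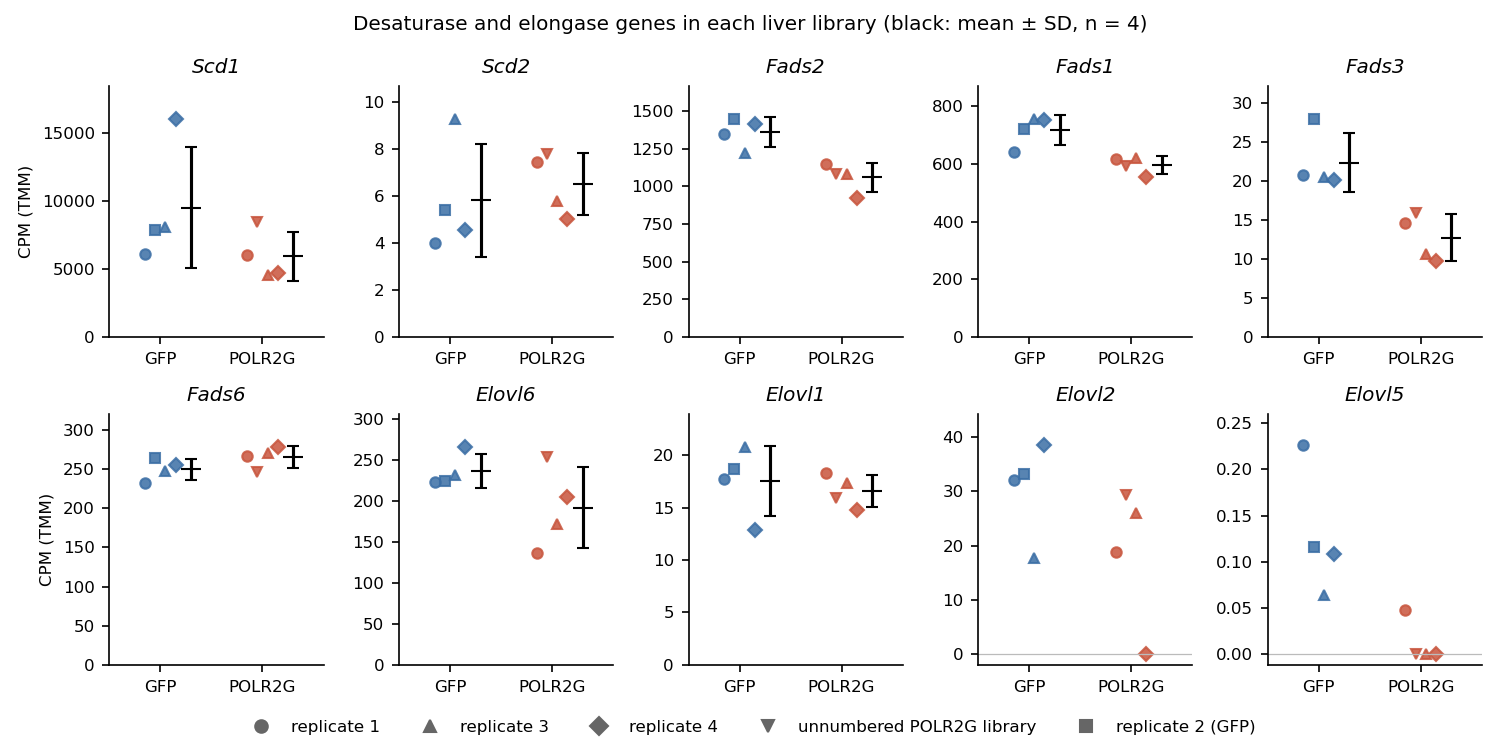
CPM (TMM-scaled) of each of the 10 genes in each library, by group, with a linear axis for each gene; symbols mark replicate numbers and black bars the mean ± SD over 4 libraries, left out where a library is at 0. The POLR2G points of Fads1, Fads2 and Fads3 all lie below the GFP control points, and the other 7 panels either overlap or, for Elovl5, hold at most 4 counts a library.

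Fads2 encodes the delta-6 desaturase, the first and rate-limiting step of the polyunsaturated route. It measured 1349.7, 1448, 1220.4 and 1410.0 CPM in GFP control replicates 1 to 4, and 1149, 1079.6 and 923 CPM in POLR2G replicates 1, 3 and 4 and 1085 CPM in the unnumbered POLR2G library. All GFP control libraries lay above all POLR2G libraries, and POLR2G replicate 4 was the lowest. The means were 1357 ± 99.6 and 1059 ± 96.0 CPM (SD, n = 4 each), a log2 fold change of -0.36 (SE 0.0879).

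Fads1 encodes the delta-5 desaturase that acts later in the same route. Its values were 642, 720.0, 755 and 752 CPM in GFP control replicates 1 to 4, and 617, 621 and 554 CPM in POLR2G replicates 1, 3 and 4 and 591 CPM in the unnumbered library. The groups were apart by a narrow margin, between 642 CPM in GFP control replicate 1 and 621 CPM in POLR2G replicate 3. With library totals as the only scaling they overlapped, since the lowest GFP control value was then 602 CPM and the highest POLR2G value 613 CPM. The means were 717 ± 52.8 and 596 ± 30.7 CPM, and the log2 fold change was -0.27 (SE 0.0753).

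Fads3, a related gene whose product has been linked to the desaturation of sphingoid bases, was far less abundant. It measured 20.8, 28.0, 20.5 and 20.2 CPM in GFP control replicates 1 to 4, and 14.7, 10.6 and 9.80 CPM in POLR2G replicates 1, 3 and 4 and 15.9 CPM in the unnumbered library. The groups did not overlap, and GFP control replicate 2 stood apart on the high side. The means were 22.4 ± 3.75 and 12.7 ± 3.01 CPM, a log2 fold change of -0.81 (SE 0.181). Without GFP control replicate 2 the log2 fold change was -0.68. In whole liver tissue, fewer cells that express a gene and less RNA per cell cannot be told apart.

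Fads6, a member of the family whose substrate is not well known, had 232, 264, 248 and 255 CPM in the GFP control libraries in replicate order. The POLR2G libraries had 267, 270.2 and 279 CPM in replicates 1, 3 and 4 and 246 CPM in the unnumbered one. The groups overlapped and the log2 fold change was 0.088 (SE 0.0676), of the opposite sign to the 3 clustered Fads genes. The difference between them was not tested.

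Scd1, the main stearoyl-CoA desaturase of mouse liver, made up 67.3% to 85.3% of all members' counts and 0.448% to 1.63% of a library. Its values were 6091, 7839, 8063 and 16038 CPM in GFP control replicates 1 to 4, and 6039, 4543 and 4694 CPM in POLR2G replicates 1, 3 and 4 and 8449.9 CPM in the unnumbered library. The groups overlapped, and GFP control replicate 4 stood far above the next GFP control library. The means of 9508 ± 4442 and 5932 ± 1809 CPM gave a log2 fold change of -0.68 (SE 0.308), and without GFP control replicate 4 it was -0.31. That library was also the highest GFP control library for Elovl6, at 266 CPM, and for the lipogenic genes Fasn, at 710.0 CPM against 312 to 489 CPM in the other GFP control libraries, and Gpam, at 339.5 CPM against 218 to 241 CPM. Their part in the Scd1 difference was not tested.

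Scd2 had 71 to 154 counts in a library. It measured 4.01, 5.40, 9.28 and 4.55 CPM in GFP control replicates 1 to 4, and 7.43, 5.80 and 5.01 CPM in POLR2G replicates 1, 3 and 4 and 7.79 CPM in the unnumbered library. The groups overlapped, with GFP control replicate 3 the highest library of all 8, and the log2 fold change was 0.17 (SE 0.282). Without that library it was 0.48, without GFP control replicate 1 it was 0.026, without GFP control replicate 4 it was 0.066, and without the unnumbered POLR2G library or POLR2G replicate 1 it was 0.070 or 0.096. Scd1 to Scd4 are paralogs so near in sequence that reads may be divided among them, and Scd2 values of this size are uncertain.

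Elovl6 encodes the elongase that takes palmitate to stearate, the substrate of Scd1. It measured 223, 224, 231 and 266 CPM in GFP control replicates 1 to 4, and 137, 172 and 205 CPM in POLR2G replicates 1, 3 and 4 and 253 CPM in the unnumbered library. In 3 of 4 POLR2G libraries the value was below every GFP control library, and the unnumbered one lay within the GFP control range. The log2 fold change was -0.30 (SE 0.166), and it ranged from -0.46 without the unnumbered POLR2G library to -0.17 without POLR2G replicate 1. Elovl1, the elongase of very long saturated chains, had 17.7, 18.7, 20.8 and 12.9 CPM in the GFP control libraries in replicate order. It had 18.3, 17.3 and 14.8 CPM in POLR2G replicates 1, 3 and 4 and 15.9 CPM in the unnumbered library, all within the GFP control range, with a log2 fold change of -0.076 (SE 0.148) that was 0.016 without GFP control replicate 3 and -0.20 without GFP control replicate 4.

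The elongases of the polyunsaturated route gave the least reliable values. Elovl2, which lengthens the longer polyunsaturated acids on the way to docosahexaenoic acid, had 567, 574, 276 and 711 counts in GFP control replicates 1 to 4. It had 392 and 445 counts in POLR2G replicates 1 and 3, 490 in the unnumbered library and 0 in POLR2G replicate 4, where a count of 0 allows up to 0.171 CPM (3 counts, counting error only). Only 2 genes of the table were at 0 in a single library and at 200 counts or more in the other 7. In CPM the GFP control libraries had 32.1, 33.3, 17.8 and 38.5 and the other 3 POLR2G libraries 18.9, 26.1 and 29.3, which lay inside the GFP control range. The log2 fold change was -0.71 (SE 0.783) with POLR2G replicate 4 and -0.30 without it. Elovl5, which acts earlier on the same route and is a well-known liver gene, had 4, 2, 1 and 2 counts in the GFP control libraries. It had 1 count in POLR2G replicate 1 and 0 in the other 3 POLR2G libraries, each of which allows up to 3 counts. No fold is given for it, and its low level in this table is not read as a low level in liver.

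Over the 9 tested members the median log2 fold change was -0.30, against -0.0031 over all 10390 genes tested. Elovl5 did not pass the low-count filter and is not in that median. The count of members past the threshold was 0 of 9 by the quasi-likelihood test of edgeR, with adjusted p from 0.236 for Fads3 to 0.940 for Elovl1. At an unadjusted p under 0.05 edgeR gave Fads1, Fads2 and Fads3, beside 8.30% of all genes (4.10% lower). The 3 members whose groups did not overlap stand beside 5.51% of all genes tested in either direction. Since the members were listed with this comparison known, nothing is read from these shares. limma-voom passed 0 of the 9 members (0.0289% of all genes). DESeq2 passed Fads1 (adjusted p = 0.0201), Fads2 (0.00651) and Fads3 (0.00666), all lower, where it called 1.35% of all genes (0.616% lower). Over all fits and tests run the adjusted p ranged from 0.0201 to 0.722 for Fads1, from 0.00651 to 0.666 for Fads2 and from 0.00666 to 0.530 for Fads3.

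**Figure D3:**
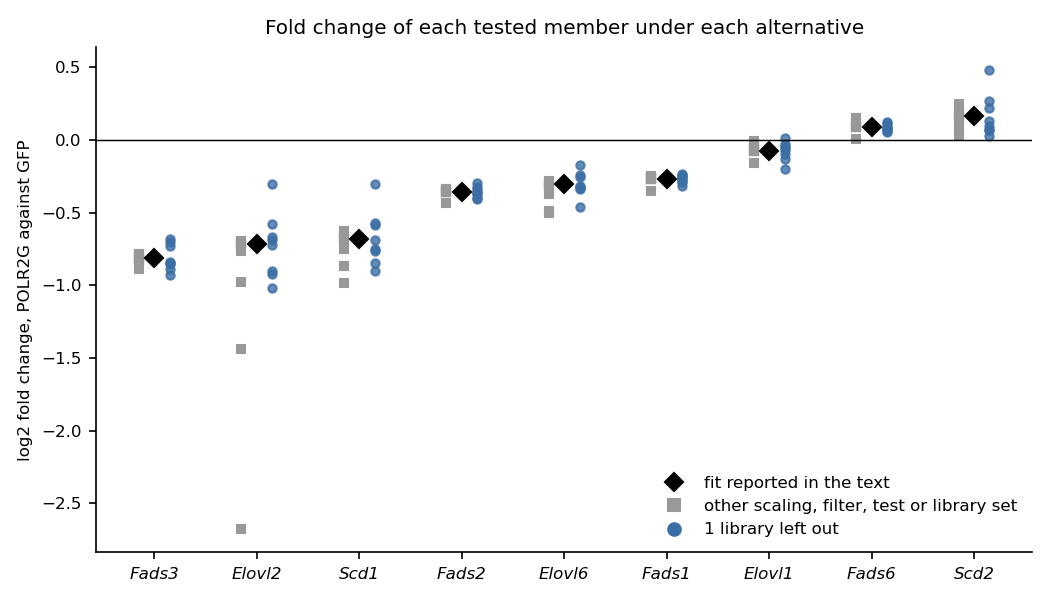
Log2 fold change of the 9 tested members, POLR2G against GFP control, in the fit reported (black), under other scalings, filters, tests or library sets (grey) and with 1 library left out (blue). Fads1, Fads2, Fads3, Scd1, Elovl2 and Elovl6 stay below 0 in every fit drawn, Fads6 and Scd2 stay above 0, and Elovl1 crosses it. Scd1 moves up to -0.31 without GFP control replicate 4, and the grey point of Elovl2 at -2.68 is limma-voom.

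The genes around the Fads cluster lay on both sides of 0. Within 500 kb on either side (a window chosen after the values were seen) 14 other genes were tested, 7 with a lower and 7 with a higher mean, with a median log2 fold change of -0.0048. Of the 14, 0 had all POLR2G libraries below all GFP control libraries, as had 2.68% of all genes. Rab3il1, the gene next to Fads3 on the other side, had all POLR2G libraries above, as had 2.83% of all genes. It measured 3.70 ± 0.321 CPM under POLR2G against 2.21 ± 0.967 CPM (log2 fold change 0.74, SE 0.346, edgeR adjusted p = 0.619). Fth1, the ferritin heavy chain gene just beyond it, measured 1267 ± 46.7 and 1298 ± 39.1 CPM. Fen1, beyond Fads1, had 3.49 ± 1.28 and 3.65 ± 0.497 CPM.

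**Figure D4:**
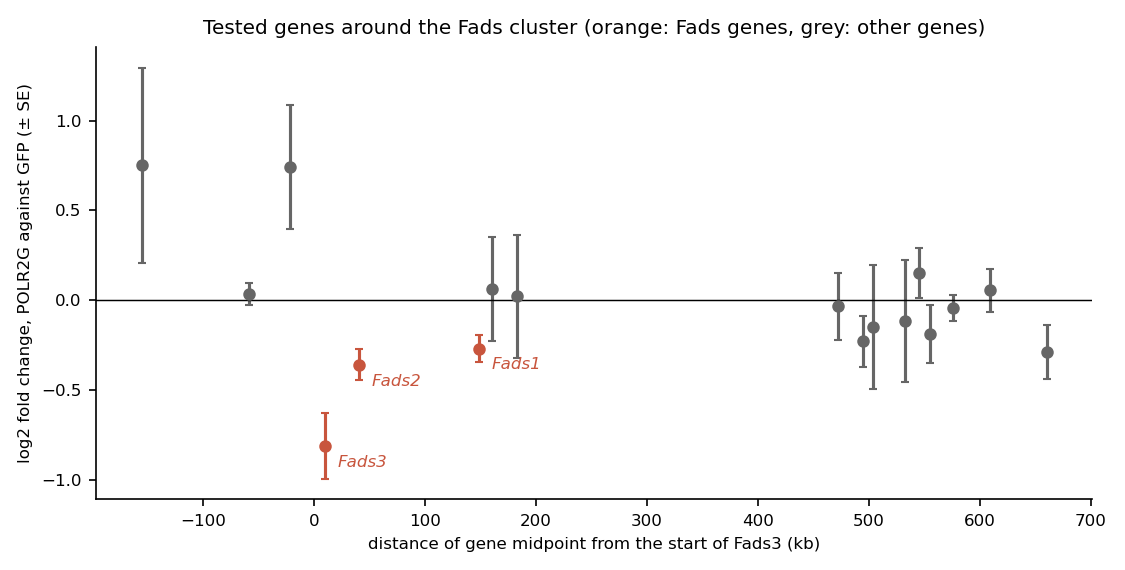
Log2 fold change (± SE) of each tested gene around the Fads cluster against the distance of its midpoint from the start of Fads3 in kb; orange points are Fads3, Fads2 and Fads1 and grey points the 14 other genes. The 3 orange points lie between -0.81 and -0.27, and the grey points scatter on both sides of 0, with an SE above 0.3 for 5 genes of low count.

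Each elongation round needs a reductase, a dehydratase and a second reductase beside the elongase, and the stearoyl-CoA desaturases need cytochrome b5 as electron donor. In the list of elongation partners and other elongases, 6 of 9 genes were tested and 0 passed, with 5 lower means and a median log2 fold change of -0.080. Leading by p were Tecr, the last reductase of the cycle (-0.24, SE 0.241), and Elovl3, an elongase of saturated chains (-0.21, SE 0.222). Among the other desaturases and electron donors, 5 of 8 were tested and 0 passed (median -0.036). Cyb5a, the microsomal cytochrome b5 gene, had 755 to 869 CPM in the GFP control and 944 to 1028 CPM in the POLR2G libraries. All its POLR2G libraries thus lay above all GFP control libraries, as in 2.83% of all genes, opposite to Fads1 and Fads2 (log2 fold change 0.27, SE 0.0698, edgeR adjusted p = 0.320). Cyb5b, the outer mitochondrial form, had overlapping libraries and a log2 fold change of -0.22 (SE 0.0926, edgeR adjusted p = 0.555).

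Of 15 factors known to control some of the members, 12 were tested and 0 passed, 5 with a lower and 7 with a higher mean (median 0.028). Srebf2, the SREBP of cholesterol synthesis (-0.25, SE 0.127), and Mlx, the partner of ChREBP (-0.20, SE 0.115), had the smallest p. Of 13 lipogenesis genes 9 were tested and 0 passed, with 7 lower means and a median of -0.14. Acss2, Me1, Pnpla3 and Slc25a1 had too few counts to be tested. Whether the gene values cover all transcripts is not given for the list genes either, which limits these counts and medians. Fasn, the fatty acid synthase gene, had a log2 fold change of -0.49 (SE 0.222). Of 14 genes that activate or use the acids made, 9 were tested and 0 passed, with 7 lower means and a median of -0.12. Acsl4, an acyl-CoA synthetase that prefers arachidonic acid (-0.26, SE 0.119), and Acsl3, a long-chain one (-0.29, SE 0.143), led it. Of the 41 genes tested in the 5 lists, 0 passed with edgeR (0.0385% of all genes did) and 0 with limma-voom (0.0289%). An unadjusted edgeR p under 0.05 was found for 2 of them, Cyb5a and Cyb5b, beside 8.30% of all genes. DESeq2 passed 1, Cyb5a, as higher in POLR2G livers (log2 fold change 0.27, adjusted p = 0.00534), where it called 1.35% of all genes.

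**Figure D5:**
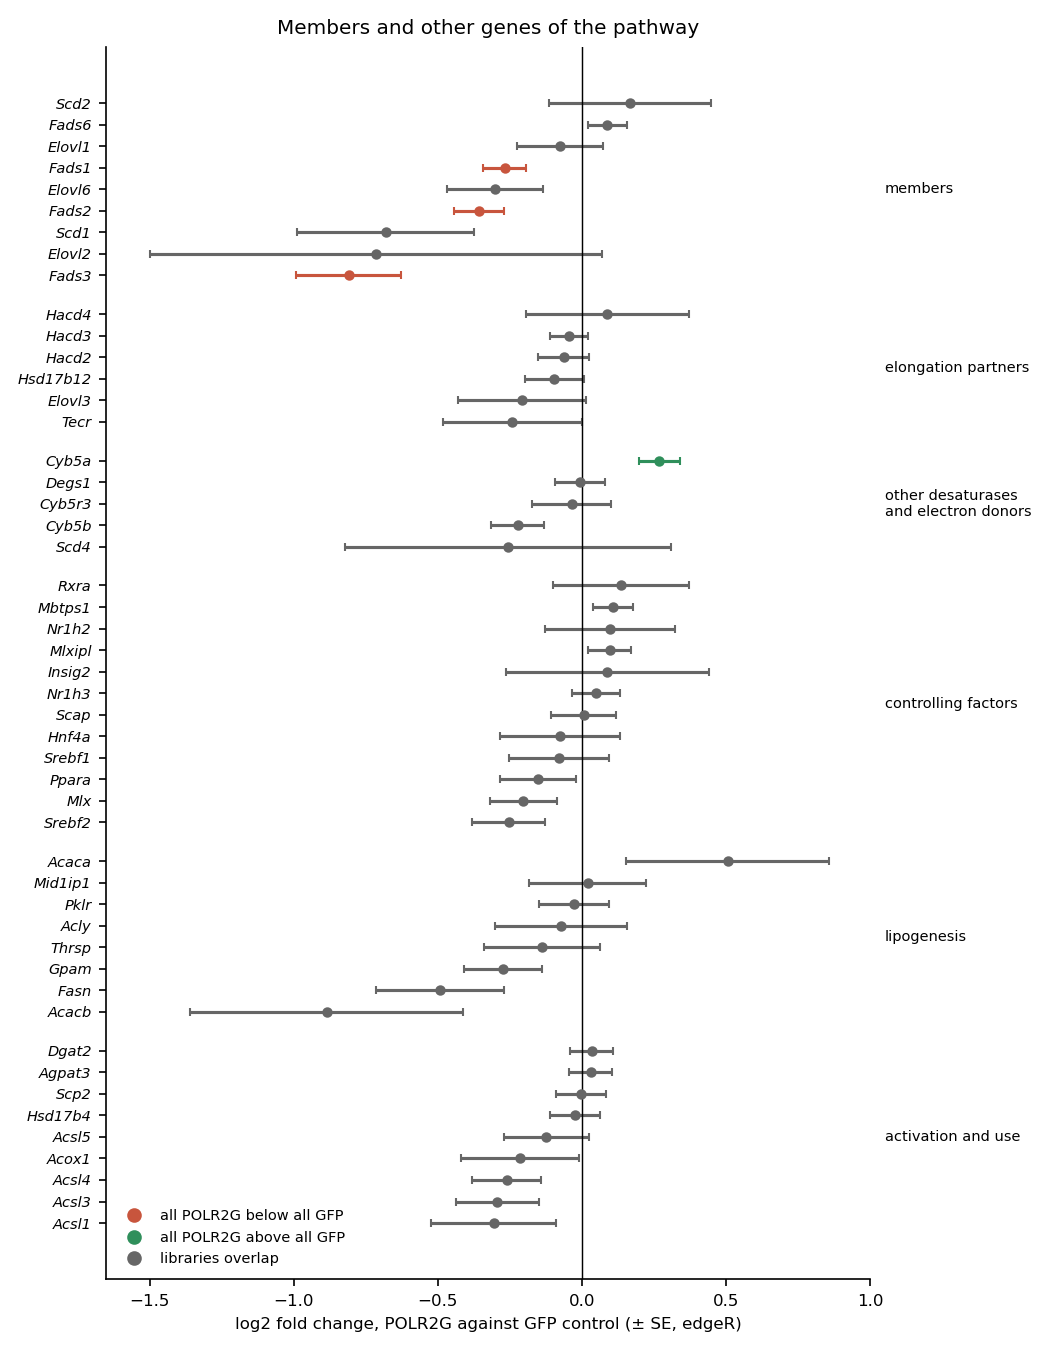
Log2 fold change (± SE, edgeR) of the 9 tested members and of the tested genes of 5 pathway lists except 1 of lipogenesis, POLR2G against GFP control; colour marks genes whose 4 POLR2G libraries all lie below (orange) or above (green) the 4 GFP control libraries. Only Fads1, Fads2 and Fads3 are orange and only Cyb5a is green among the genes drawn.

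Members were also compared within groups, where the contrast between groups plays no part. Deviations of log2 CPM from the group mean were correlated over the 8 libraries for the 36 pairs of the 9 tested members, with exact two-sided permutation tests that keep libraries in their group (576 arrangements) and Benjamini-Hochberg adjustment over the 36 pairs. The median r was 0.18, 20 pairs were positive, and 0 passed after adjustment. Elovl1 and Elovl6 alone had an unadjusted p under 0.05 (r = -0.55, rho = -0.62, exact permutation p = 0.0486 and 0.116, adjusted 0.859 and 0.923; r = -0.75 without the 2 libraries farthest from the median). Fads2 and Elovl2 had the highest of these r, 0.79 with rho = 0.62 (exact permutation p = 0.0503 and 0.132, adjusted 0.859 and 0.923), and r = 0.050 without POLR2G replicate 4, where Elovl2 is at 0, and GFP control replicate 3. Fads2 and Fads3 had r = 0.67 and rho = 0.60 (exact permutation p = 0.0990 and 0.191, adjusted 0.859 and 0.923), and r = 0.56 without the 2 libraries farthest from the median of Fads2. Fads1 and Fads2 had r = 0.32 and rho = 0.19 (exact permutation p = 0.469 and 0.660, adjusted 0.859 and 0.972), and r = -0.43 without the 2 farthest, so that relation rests on those libraries. Scd1 and Elovl6 had r = 0.49 and rho = 0.52 (exact permutation p = 0.167 and 0.184, adjusted 0.859 and 0.923), and r = -0.59 without the 2 farthest. With 8 libraries, no pair of members was shown to vary together between libraries.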

How the data were processed

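RNA from liver was measured in 8 libraries (4 POLR2G, 4 GFP control). The values are estimated counts that the authors deposited as whole numbers, not normalized; Salmon 1.2.1 and the builds GRCm38 and mm10 are named per the submitters' processing notes, with no role. How transcripts were summed to genes, and on which annotation, is not given in the sources used here. Columns were matched by library name; 1 POLR2G column has no listed number. Symbols (20817 of 20894), positions and lengths are from GENCODE M21 on GRCm38. The main test was edgeR 4.0.16 (R 4.3.3, TMM, filterByExpr with minimum count 10 and total 15, group only, two-sided, Benjamini-Hochberg over 10390 genes, threshold 0.05); SE is the log2 fold change divided by the root of F. Log2 CPM used a prior count of 2. The fits were tested on simulated data, where a larger share of the calls was false with DESeq2 than with edgeR. In the same data edgeR found fewer of the genes set to differ than DESeq2, at every size of difference set. Alternatives were 3 other scalings, DESeq2 1.42.0, limma-voom 3.58.1, 2 other filters, leaving out Polr2g, blocking on replicate number and leaving out each library in turn. Members and lists were chosen with earlier results of these data known, and the permutation p of the correlations was added after the values were seen. Named genes are all 10 members and, from each pathway list with 0 passing, the 2 with the smallest p, of which 1 lipogenesis gene is not reported here; the neighbours of the Fads genes, and Rab3il1, Fth1, Fen1 and Gpam by name, were picked with their values known. The few libraries and, for Elovl5, Scd2 and Fads3, the few counts limit the precision.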

Additional observations from a re-analysis of the deposited data

Results flagged for a closer look

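Each of 20 groups of 4 libraries (10 genes, 2 groups) was checked for 1 library far from the others of its group. Chance flags about 1 group in 20. Those flagged were Fads3 in the GFP control libraries and Elovl5 in the POLR2G libraries. Fads3 measured 27.965 CPM in GFP control replicate 2, and its gap to the next library was 0.917 of the group's range. Elovl5 measured 0.048 CPM in POLR2G replicate 1, which is 1 count, against 0 in the other 3 POLR2G libraries. With 3 libraries at 0 any count above 0 meets the criterion, so this says nothing about that library, and 1 count is within what a count of 0 allows.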

How the results depend on the processing

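The median log2 fold change of the tested members stayed between -0.37 and -0.24 over all fits (-0.37 to -0.24 with 1 library left out). The count of members past the threshold was 0 in each fit but DESeq2, which gave 3 (0 to 0 with 1 library left out). The count over all genes, 4 in the fit reported, was 140 with DESeq2, 1 with library totals only, 2 with Polr2g left out and 1 to 6 with 1 library left out (1 without POLR2G replicate 1 or 4, 2 when either the unnumbered POLR2G library or replicate 2 of the controls was dropped). It was 2 with the replicate number as a block in the 6 libraries whose numbers both groups share, and 1 in the same 6 libraries without the block. Libraries of the same number showed little shared deviation (r = 0.068, -0.017 and 0.023 for numbers 1, 3 and 4). Not every library correlated best with its own number. What such libraries share beside the number is not given in the labels. The block changed the call of no member, but 0 members were called in either fit, so the calls say nothing about what they share. The log2 fold change of Elovl1 ranged from -0.20 to 0.016 with 1 library left out, above 0 only without GFP control replicate 3. The correlation of Fads1 and Fads2 within groups ranged from -0.12 to 0.72, below 0 only without POLR2G replicate 4. That of Scd1 and Elovl6 ranged from 0.19 without the unnumbered POLR2G library to 0.83 without POLR2G replicate 1 (exact permutation p = 0.00694, unadjusted, for the latter). The cause was not tested. With the median length of coding transcripts the levels in GFP control libraries were 3685 CPM per kilobase for Scd1, 774 for Fads2, 355 for Fads1, 104 for Elovl6, 19.4 for Fads3, 13.5 for Elovl1 and 0.202 for Elovl5. Elovl5 has too few counts for a fold change, and 1 library each decides much of the values of Scd1 (GFP control replicate 4) and Elovl2 (POLR2G replicate 4).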

Other observations

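Among 4425 protein-coding genes whose mean log2 CPM was 4 or more, the 5 whose deviations within groups over the 8 libraries were most like the mean profile of Fads1 and Fads2 were Csrp3 (r = 0.94), Aph1a (0.94), Rpl38 (0.92), Ube2h (0.904) and Cldn1 (0.903). Fads1 and Fads2 were not shown to vary together within groups (r = 0.32), so a gene like their mean need not be like each. The genes most like Scd1 were Micu2 (0.94), Gnb1 (0.94), Sdc3 (0.93), Vmn2r53 (0.93) and Vsig4 (0.93). These are the highest of many correlations over 8 libraries that share depth and scaling, and they are given as a description. None of the 10 passed the edgeR test between the groups, and their log2 fold changes ran from -0.16 for Csrp3 to 0.23 for Vsig4. Enpp4 was, beside Elovl2, the other gene at 0 counts in a single library with at least 200 counts in the other 7.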
